A study of Rattus norvegicus with 9 samples.

Results

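Neurons hold steep gradients of sodium, calcium, chloride and protons across their membranes, and the genes described here code for the channels that let these ions flow and the pumps that move them back. They are the genes whose single symbol in the annotation of the array begins with Scn, Cacn, Clcn, Trpc, Trpv, Ryr, Itpr, Asic, Atp1, Atp2 or Atp6 (symbols from Atp10 to Atp19 left out). The rule found 63 of the 4736 genes that the annotation names singly, and these 63 genes had 109 of the 8740 probe sets tested, with 37 genes measured by 1 probe set and 26 by several, up to 5. Each gene is given at its brightest probe set, the one with the highest mean over the 9 arrays, and other probe sets are given beside the differences described in detail. The same rule asked for the prefixes Hcn and Trpm, under which no gene was found.

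The arrays measured RNA of sympathetic neurons, the cells of the autonomic nervous system that innervate the viscera and blood vessels. Superior cervical ganglia of Holtzman rats were taken at embryonic day 21, and the dissociated cells were grown without serum on collagen with nerve growth factor at 100 ng/ml. All cultures also received Ara-C, which kills dividing cells, for 48 hr to deplete glial and other non-neuronal cells. BMP24h cultures were given bone morphogenetic protein 7 (BMP-7), a growth factor that makes these neurons extend dendrites, at 50 ng/ml for 24 hr from day 5 in culture, BMP6h cultures were given the same dose for 6 hr, and control cultures were kept in the medium alone. Each condition had 3 arrays, each of RNA pooled from several cultures, and the growth of the neurons was repeated 3 times. Each of these experiments used 1 dissection and gave 1 sample to every condition, and whether arrays of the same number come from the same dissection is not given in the sources used here. The arrays numbered 1 made up batch 1, which received 10 µg of cRNA, and the others made up batch 2, which received 5 µg.

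Voltage-gated sodium channels start and carry the action potential, and each is built around 1 large pore subunit with small beta subunits at its side. Voltage-gated calcium channels turn the same voltage change into calcium entry, which triggers transmitter release at terminals and signals to the nucleus from the soma and dendrites. Calcium is then cleared by ATPases of the plasma membrane, the endoplasmic reticulum and the Golgi, while IP3 and ryanodine receptors release it again from stores. Clcn proteins carry chloride across the surface or exchange it for protons in endosomes and lysosomes, which the V-ATPase acidifies.

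Values are RMA expression values on the log2 scale, on which a difference of 1 is a 2-fold change. Arrays carry no read depth, so precision rests on the 3 arrays of each condition. Markers of sympathetic neurons were read first: Th, the rate-limiting enzyme of catecholamine synthesis, averaged 13.41 in BMP24h, 13.42 in BMP6h and 13.49 in control cultures, and Dbh, which makes noradrenaline, averaged 12.18 in BMP24h, 12.10 in BMP6h and 11.94 in control cultures. The thresholds of the Methods ask for a raw p under 0.05 and a change of 1.2-fold or more (0.26 on the log2 scale), and none of 11 measured neuron markers passed them in any comparison. BMP6h replicate 2 stood apart, since 9.99% of all probe sets differed there by over 1 log2 unit from the average of their 2 companion arrays. The share was 4.21% on BMP6h replicate 3 and 3.84% on control replicate 3, and it did not exceed 1.09% elsewhere. Among the 63 channel and pump genes, 6 were that far off on BMP6h replicate 2, 5 on control replicate 3 and 2 on BMP6h replicate 3, and no gene was on the remaining 6 arrays. A lower value in such bulk RNA can come from fewer cells of a type or from less RNA per cell, and these cannot be told apart.

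Few channel and pump genes stood apart between BMP-7-treated and control cultures, and none passed a test adjusted for the number of probe sets. After 24 hr of BMP-7, 4 of the 63 genes passed the thresholds of the Methods, a share of 6.35%, where 3.82% of all 4736 genes passed. Scn7a and Atp2c1 were higher (3.17%, against 1.77% of all genes), and Asic2 and Atp2b1 were lower (3.17%, against 2.05%). After 6 hr none of the 63 passed in limma, where 1.79% of all genes did (0.908% higher and 0.887% lower), and 0 of the 63 had an unadjusted p under 0.05 there. When the model held a block for the replicate number and no batch term (the replicate block), 7 of the 63 passed at 6 hr, where 4.58% of all genes did. These were Cacna1h, Scn1a, Cacna1g and Asic1 as higher and Ryr2, Clcn7 and Itpr2 as lower (limma, unadjusted p from 0.0149 to 0.044), and 0 passed the adjusted test. Between 24 hr and 6 hr, 3 genes passed, a share of 4.76% against 3.21% of all genes. Of these Scn7a was higher (1.59%, against 1.58% of all genes), and Asic2 and Clcn3 were lower (3.17%, against 1.63%). The 24 hr comparisons share the BMP24h arrays, so a gene that passed both did so partly on the same values.

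No channel or pump gene passed the adjusted test, limma with Benjamini-Hochberg adjustment over the 8740 probe sets, at an adjusted p under 0.05. The lowest adjusted p was 0.712 at 24 hr (Asic2), 0.887 at 6 hr and 0.767 between the times (Scn7a), and the shares of all genes that passed were 0.211%, 0.0422% and 0%. At an unadjusted p under 0.05, 4, 0 and 3 of the 63 were found, where 3.86%, 1.79% and 3.29% of all genes were. A linear model with the same terms but no moderation of the variance, as in the Methods, also gave 0 of the 63 past adjustment in each comparison. At 24 hr this model passed 0% of all genes, so its 0 there says nothing particular about the 63.

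Most of the 63 genes stayed close to their control values. The median log2 fold change over the 63 genes was 0.01 at 24 hr, -0.01 at 6 hr and 0.02 between the times, beside 0.01, -0.03 and 0.03 over all genes. At 24 hr 34 of the 63 had a log2 fold change above 0, and 52.2% of all genes did, while 31 of the 63 did so at 6 hr, beside 42.7% of all genes, and 34 of the 63 between the times, beside 56.7%. A log2 fold change larger than 0.5 in either direction was held by 4 genes at 24 hr (6.35%, against 4.29% of all genes), by 6 at 6 hr (9.52%, against 7.47%) and by 4 between the times (6.35%, against 5.09%). The 95% interval of the log2 fold change lay within 1 unit of 0, that is within a 2-fold change either way, for 54 genes at 24 hr, for 49 at 6 hr and for 54 between the times, and the median standard error was 0.17. Where an interval held 0, a difference of any size within it was not excluded with 3 arrays a condition.

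**Figure D1:**
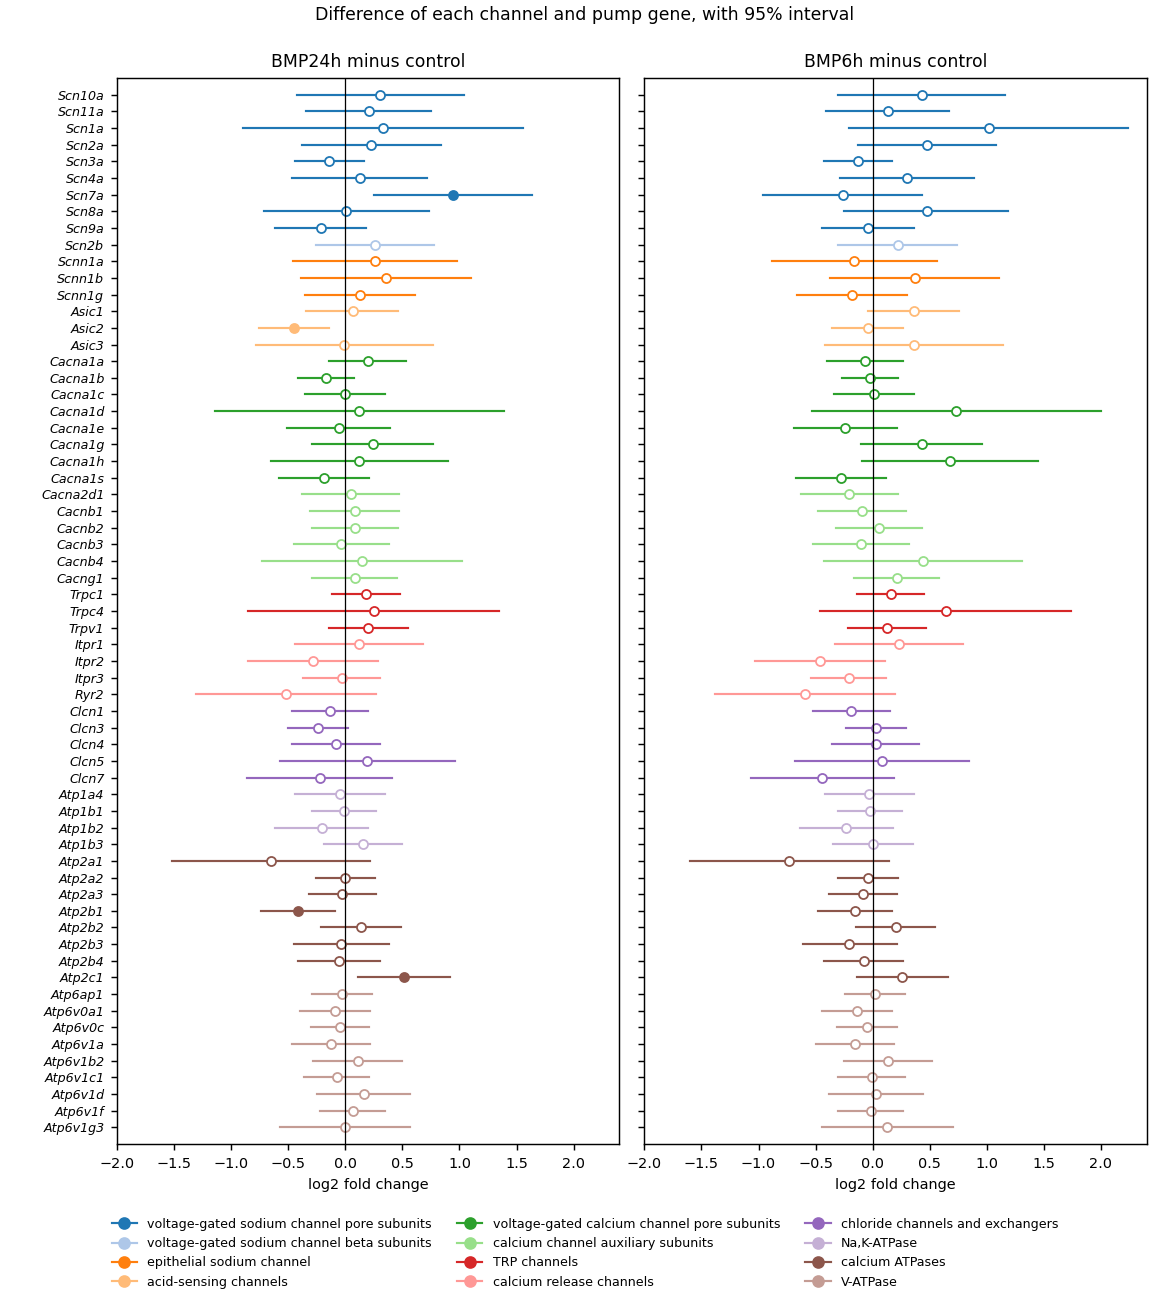
Log2 fold change (x axis) of each of the 63 genes (y axis, coloured by family), BMP24h minus control on the left and BMP6h minus control on the right, as a circle with its 95% interval. Filled circles, which passed the thresholds of the Methods, are Scn7a, Asic2, Atp2b1 and Atp2c1 on the left, and there is none on the right.

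Scn7a alone of the 9 voltage-gated sodium channel pores passed the thresholds in the unweighted fit of condition and batch to all 9 arrays. It codes for Nax, an atypical member that voltage does not open and that responds to the sodium level outside the cell. Scn7a values were 7.42, 7.32 and 7.69 on the BMP24h arrays, 6.37, 5.58 and 6.87 on the BMP6h arrays and 6.50, 6.54 and 6.57 on the control arrays. All 3 BMP24h arrays lay above all 6 others, while the BMP6h arrays spread to both sides of the narrow control range, with replicate 2 the lowest. The average was 7.48 ± 0.19 in BMP24h, 6.27 ± 0.65 in BMP6h and 6.54 ± 0.03 in control cultures (SD, n = 3 each). BMP24h was 1.92-fold above control (log2 fold change 0.94, 95% interval 0.25 to 1.64, limma, unadjusted p = 0.0145, adjusted p = 0.835) and 2.30-fold above BMP6h (95% interval of the log2 fold change 0.51 to 1.90, unadjusted p = 0.0042, adjusted p = 0.767). BMP6h minus control was -0.26, with an interval of -0.96 to 0.43, and it was 0.12 without BMP6h replicate 2. Without BMP6h replicate 3 it was -0.59 and passed as lower (limma, unadjusted p = 0.0429).

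The difference in Scn7a was seen at 1 of its 2 probe sets. The other one gave 6.24, 6.06 and 6.65 in BMP24h, 6.27, 5.92 and 6.33 in BMP6h and 6.29, 6.33 and 6.33 in control cultures, so that the BMP24h arrays lay on both sides of the control arrays. Its log2 fold change was 0.00 against control and 0.15 against BMP6h. With the mean over both probe sets, the 24 hr value was 0.47 and did not pass (limma, unadjusted p = 0.0711), and it missed as well without BMP24h replicate 3, at 0.82 (unadjusted p = 0.0554).

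Scn7a is also known from glial cells, and markers of other cell types were therefore read beside it. Each marker was read at its brightest probe set alone. Of 12 measured markers of satellite glia and Schwann cells, 0 passed the thresholds of the Methods at 24 hr. Their median log2 fold change was -0.01. Their mean level ran from 7.54 to 7.78 in BMP24h, from 7.61 to 7.68 in BMP6h and from 7.63 to 7.72 in control cultures. The paper lists Glul, a member of this set, among the genes that BMP-7 raised only at 24 hr. At the probe set read here, BMP24h exceeded control by 0.14 (log2) for Glul, which did not pass. Whether other probe sets of these markers differed was not tested. Of 14 measured fibroblast and matrix markers, 5 passed as lower at 24 hr, namely Dcn, Lum, Vim, Mgp and Igfbp3, and 0 as higher. Of all genes 2.05% passed as lower and 1.77% as higher. At 6 hr Col1a1 passed as higher and Dcn as lower (0.908% and 0.887% of all genes). Between the times Vim and Igfbp3 passed as lower (1.63% of all genes). At 24 hr 0 passed the adjusted test, and the median over the 14 was -0.31. Their mean level ran from 9.36 to 9.63 in BMP24h, from 9.78 to 9.91 in BMP6h and from 9.72 to 9.95 in control cultures. Of 5 endothelial and mural markers, Kdr passed as lower at 24 hr (log2 fold change -1.39, 2.05% of all genes) and 6 hr (-1.54, 0.887%). Its standard error was 0.56, and none of the 5 passed the adjusted test. Their mean level ran from 6.26 to 6.44 in BMP24h, from 6.12 to 6.47 in BMP6h and from 6.49 to 7.01 in control cultures. None of 9 macrophage and blood cell markers passed. What part such cells had in any difference of a channel or pump gene was not tested.

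In the unweighted fit of condition and batch to all arrays, the other 8 sodium channel pore subunits did not pass in any comparison. Scn1a passed at 6 hr with the replicate block. Without BMP6h replicate 3, Scn1a, Scn2a and Scn8a passed as higher at 6 hr (limma, unadjusted p = 0.0224, 0.0355 and 0.0314). Scn8a also passed as lower between the times without that array (log2 fold change -0.75, limma, unadjusted p = 0.0331). Scn1a, a pore of fast-spiking neurons, had the largest value of all 63 genes at 6 hr, and it came mainly from 1 array. Scn1a gave 5.29, 5.62 and 5.14 in BMP24h, 5.65, 7.26 and 5.20 in BMP6h and 5.47, 5.21 and 4.38 in control cultures. BMP6h replicate 2 was far above the other 8 arrays and control replicate 3 was the lowest, and the 3 conditions overlapped. The log2 fold change at 6 hr was 1.02 (95% interval -0.21 to 2.24, limma, unadjusted p = 0.0925) and was 0.35 without BMP6h replicate 2. Scn2a, a pore of developing and unmyelinated axons, had the same array on top at 6.95, with 6.09 and 5.95 on the other BMP6h arrays, 6.05 to 6.10 on the BMP24h arrays and 5.68 to 6.07 on the control arrays, and its log2 fold change at 6 hr was 0.48 (interval -0.13 to 1.08). The remaining pores Scn10a, Scn11a, Scn4a, Scn8a and Scn9a, named after their values were seen, had log2 fold changes at 24 hr from -0.22 (Scn9a) to 0.31 (Scn10a), each with an interval that held 0. Scn10a was lowest on control replicate 3, at 3.39, and its value was -0.096 without that array.

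Scn3a, a pore subunit of developing neurons, is named here outside the rule for named genes, after its values were seen, because all 3 BMP24h arrays lay below the control arrays. Scn3a gave 8.80, 8.76 and 8.81 in BMP24h, 8.86, 8.61 and 8.93 in BMP6h and 8.86, 9.03 and 8.90 in control cultures. The gap was small, with a log2 fold change at 24 hr of -0.14 (interval -0.44 to 0.16). A second Scn3a probe set gave 6.93, 7.12 and 6.82 in BMP24h, 7.24, 7.20 and 7.22 in BMP6h and 7.23, 7.34 and 7.12 in control cultures, with a log2 fold change of -0.28 (limma, unadjusted p = 0.0598). At both probe sets the BMP24h arrays lay below the control arrays, but at the brightest the lowest array was BMP6h replicate 2, and neither passed.

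Scn2b, the only beta subunit found, gave 4.55, 4.64 and 4.99 in BMP24h, 4.81, 4.44 and 4.81 in BMP6h and 4.52, 4.80 and 4.08 in control cultures. The conditions overlapped, with differences from control of 0.26 after 24 hr and 0.22 after 6 hr whose intervals held 0. The 3 subunits of the epithelial sodium channel, which carries sodium without a voltage gate, were likewise within the spread of the arrays. Scnn1b was at 6.85, 7.13 and 7.09 in BMP24h, 6.90, 7.02 and 7.20 in BMP6h and 6.98, 7.15 and 5.87 in control cultures. Control replicate 3 was far below the other 8 arrays, and the log2 fold change at 24 hr, 0.36, was -0.081 without it. Scnn1a and Scnn1g were lowest on BMP6h replicate 2, at 5.25 and 5.84, and their log2 fold changes between 24 hr and 6 hr, 0.43 and 0.31, were 0.07 and 0.07 without that array.

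Acid-sensing channels open when protons bind outside the cell and carry mostly sodium. Asic2, a subunit of central and peripheral neurons, was lower after 24 hr of BMP-7. Asic2 values were 8.12, 8.14 and 8.21 on the BMP24h arrays, 8.60, 8.40 and 8.69 on the BMP6h arrays and 8.60, 8.76 and 8.46 on the control arrays. The BMP24h arrays lay close together and below all 6 others, and the BMP6h and control arrays overlapped. BMP24h was 1.37-fold below control (8.16 ± 0.05 against 8.61 ± 0.15, SD, n = 3 each, log2 fold change -0.45, 95% interval -0.76 to -0.14, limma, unadjusted p = 0.0105, adjusted p = 0.712) and 1.32-fold below BMP6h (8.56 ± 0.15, log2 fold change -0.40, unadjusted p = 0.0172, adjusted p = 0.939).

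The second probe set of Asic2 pointed the same way. It gave 7.70, 7.83 and 7.59 in BMP24h, 8.12, 8.40 and 8.05 in BMP6h and 8.10, 8.02 and 7.92 in control cultures, again with the BMP24h arrays below all 6 others. Its log2 fold change was -0.31 against control (limma, unadjusted p = 0.0629) and -0.48 against BMP6h (unadjusted p = 0.00943). At the brightest probe set, Asic2 was -0.48 in batch 1 alone and -0.43 in batch 2 alone at 24 hr, where it did not pass with 2 arrays a condition (limma, unadjusted p = 0.0932), and it still passed at 24 hr when any 1 of the 9 arrays was left out. Between the times it did not pass without BMP6h replicate 1, BMP6h replicate 3 or BMP24h replicate 1, where the log2 fold change was between -0.38 and -0.34.

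Asic1 had higher values at 6 hr that did not pass in the unweighted fit of condition and batch to all arrays. They passed with the replicate block and with no batch term (limma, unadjusted p = 0.0352 and 0.0475). Without BMP6h replicate 3 they passed with the batch in the model (log2 fold change 0.51, limma, unadjusted p = 0.0205). Asic1 also passed there as lower between the times (-0.44, limma, unadjusted p = 0.0354). It gave 7.24, 7.25 and 7.14 in BMP24h, 7.43, 7.86 and 7.23 in BMP6h and 7.19, 7.20 and 7.04 in control cultures. All BMP6h arrays lay above the control arrays, replicate 2 by the most, and the log2 fold change was 0.36 (interval -0.04 to 0.76, limma, unadjusted p = 0.0707). Asic3, known for pain signals of sensory neurons, was at 7.70 on BMP6h replicate 2 and between 6.31 and 6.67 on the other 8 arrays.

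**Figure D2:**
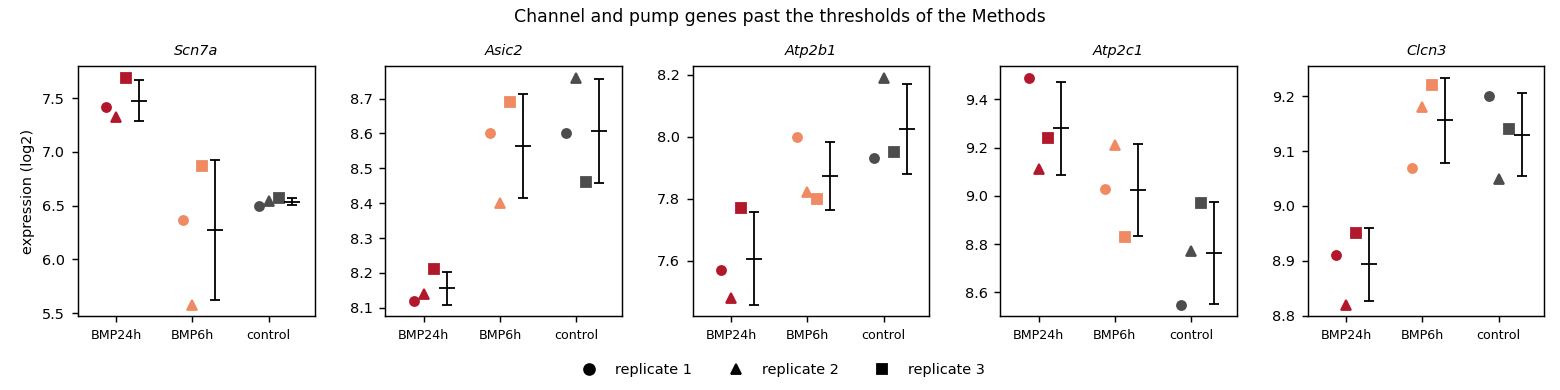
Expression (log2, y axis, a scale of its own in each panel) on each array of the 5 genes past the Methods thresholds in any comparison, by condition, with circles, triangles and squares for replicates 1, 2 and 3 and a bar for the mean and SD (n = 3). The BMP24h arrays lie above the control arrays for Scn7a and Atp2c1 and below them for Asic2, Atp2b1 and Clcn3.

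No pore or auxiliary subunit of the voltage-gated calcium channels passed in the unweighted fit of condition and batch to all 9 arrays. Without BMP6h replicate 3, Cacna1d, Cacna1g and Cacna1h passed as higher at 6 hr (limma, unadjusted p from 0.0186 to 0.0412). Cacna2d1 passed there as higher between the times. Cacna1a did so without BMP24h replicate 1, and Cacna1h passed as lower between the times with array weights. With the replicate block, Cacna1h and Cacna1g passed as higher at 6 hr, and Cacna1h as lower between the times. Over the 8 pore subunits the median difference from control was 0.06 after 24 hr and -0.01 after 6 hr, and the 24 hr values ran from -0.18 to 0.24. Cacna1a, the P/Q-type pore that serves transmitter release, gave 8.49, 8.88 and 8.69 in BMP24h, 8.54, 8.26 and 8.47 in BMP6h and 8.57, 8.46 and 8.44 in control cultures. Its highest values were BMP24h arrays, but the conditions overlapped and the log2 fold change at 24 hr was 0.20 (interval -0.14 to 0.53). Its other 3 probe sets gave 24 hr differences of 0.20, -0.25 and -0.02 (log2), and at the one with -0.25 the BMP6h arrays lay below the control arrays, with -0.39 at 6 hr (interval -0.91 to 0.13). Cacna1b, the N-type pore and the main calcium channel of sympathetic neurons, is named outside the rule for named genes, after its values were seen. Cacna1b gave 9.34, 9.27 and 9.35 in BMP24h, 9.44, 9.51 and 9.43 in BMP6h and 9.48, 9.56 and 9.42 in control cultures. All BMP24h arrays lay below the 6 others, with a log2 fold change of -0.17 against control (interval -0.41 to 0.08). The second Cacna1b probe set did not share this gap, with 8.78, 8.85 and 9.04 in BMP24h, 8.99, 8.89 and 8.88 in BMP6h and 8.93, 8.98 and 8.78 in control cultures and a log2 fold change of -0.01.

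The T-type pores, which open near the resting potential, and the L-type pore Cacna1d had higher values at 6 hr. Cacna1h gave 5.73, 6.03 and 5.71 in BMP24h, 6.17, 6.98 and 5.99 in BMP6h and 6.00, 6.00 and 5.09 in control cultures. BMP6h replicate 2 was the highest array and control replicate 3 the lowest, and the log2 fold change at 6 hr, 0.68 (limma, unadjusted p = 0.0768), was 0.35 when either array alone was left out. Cacna1g also had BMP6h replicate 2 on top, at 7.95, with 7.35 and 7.06 on the other BMP6h arrays, 7.10 to 7.37 in BMP24h and 6.89 to 7.16 in control cultures. Cacna1d gave 4.92, 5.21 and 4.45 in BMP24h, 5.06, 6.81 and 4.54 in BMP6h and 5.08, 4.49 and 4.63 in control cultures. Its 6 hr value of 0.73 was 0.00 without BMP6h replicate 2, and its other 4 probe sets ranged from -0.61 to 0.22 at 6 hr.

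The 6 auxiliary subunits, which set the surface number and gating of the pores, had log2 fold changes at 24 hr between -0.03 and 0.15, the upper end of which was Cacnb4. Cacna2d1, the target of gabapentin, gave 8.21, 8.14 and 8.46 in BMP24h, 8.04, 7.68 and 8.33 in BMP6h and 8.25, 8.17 and 8.24 in control cultures, with the conditions overlapping. Cacnb4 had all BMP24h arrays, 4.62, 4.63 and 4.59, below the BMP6h arrays, 4.66, 5.34 and 4.72, while the control arrays ran from 3.60 to 5.10. The lowest was control replicate 3, without which the 24 hr value of Cacnb4 was -0.33. Cacng1, first known from skeletal muscle, was between 6.53 and 7.20 on all 9 arrays.

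TRP channels pass calcium and sodium after receptor signals, heat or ligands, and none of the 3 measured passed. Trpc1 gave 8.45, 8.45 and 8.58 in BMP24h, 8.58, 8.48 and 8.35 in BMP6h and 8.25, 8.47 and 8.22 in control cultures, with a log2 fold change of 0.18 at 24 hr (interval -0.12 to 0.48) and 0.16 at 6 hr. The control arrays were mostly lower, but 1 of them lay within the range of both BMP-7 conditions. Trpc4 ran from 4.39 on control replicate 3 to 6.80 on BMP6h replicate 2 and from 5.20 to 5.63 on the other 7 arrays. Trpv1, the capsaicin receptor, was between 5.76 and 5.97 in both BMP-7 conditions and gave 5.83, 5.79 and 5.42 in control cultures.

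Ryr2 and Itpr2, which release calcium from the endoplasmic reticulum, were among the 3 lowest log2 fold changes of the 63 genes at 6 hr, and both passed there with the replicate block only. Ryr2 gave 4.46, 4.09 and 4.59 in BMP24h, 4.61, 3.66 and 4.66 in BMP6h and 4.52, 4.75 and 5.44 in control cultures. Control replicate 3 was the highest array and BMP6h replicate 2 the lowest, and the differences from control were -0.52 after 24 hr and -0.59 after 6 hr (log2, limma, unadjusted p = 0.164 and 0.121). Without control replicate 3 these were -0.23 and -0.30. Itpr2 gave 4.19, 4.05 and 4.15 in BMP24h, 4.12, 3.64 and 4.09 in BMP6h and 4.18, 4.11 and 4.93 in control cultures, with the same 2 arrays at the ends, and its 6 hr value of -0.46 was -0.17 without control replicate 3. Itpr3 was between 8.51 and 9.03 on all 9 arrays, with a log2 fold change of -0.03 at 24 hr.

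**Figure D3:**
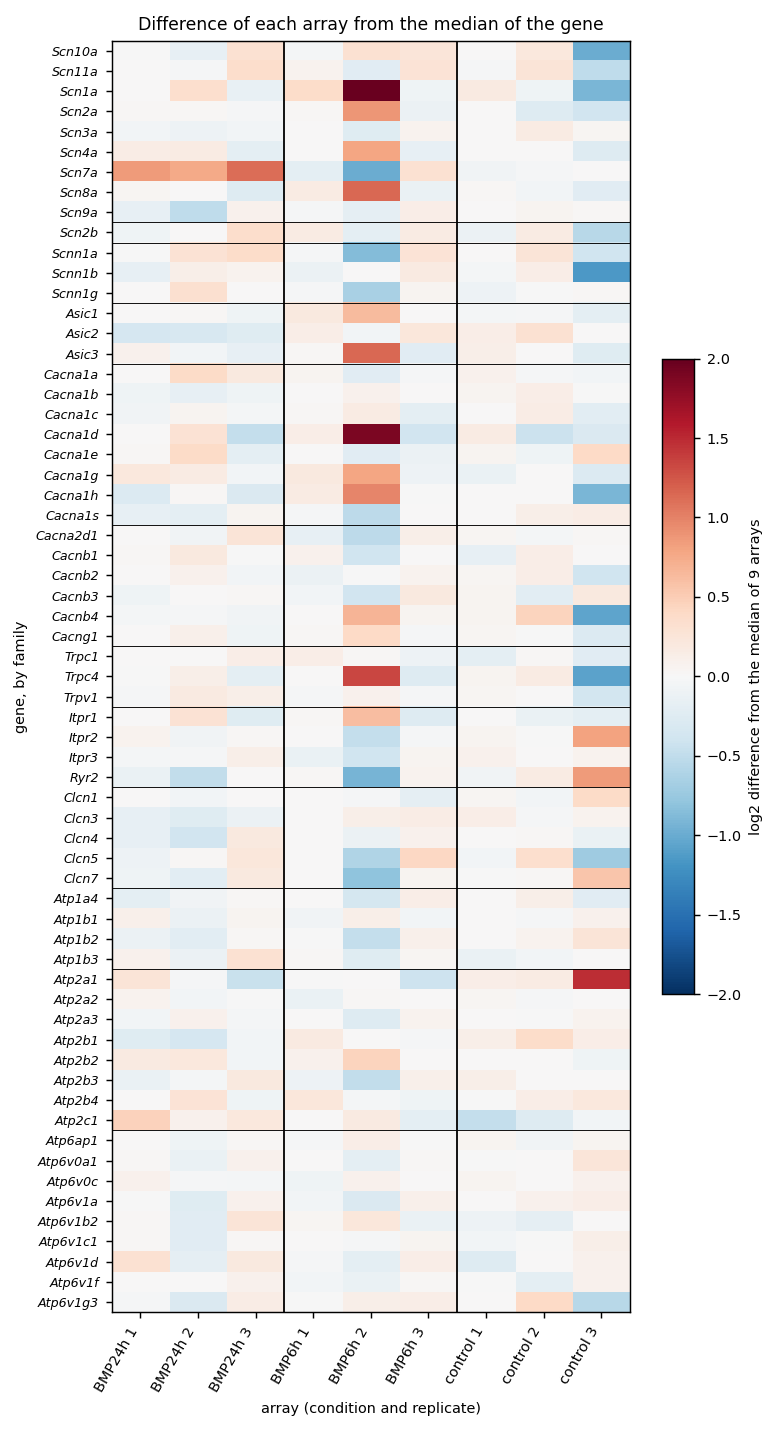
Difference of each array from the median of the 9 arrays (colour, log2 units, limited to 2 either way) for the 63 genes (y axis, grouped by family) and the 9 arrays (x axis). The strongest colours lie in the columns of BMP6h replicate 2 and control replicate 3, and Scn7a is the row in which all 3 BMP24h arrays stand out.

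Pumps that clear calcium held 2 of the 4 genes that passed at 24 hr, and they differed in opposite directions. Atp2c1 codes for a pump of the Golgi that carries calcium and manganese. It gave 9.49, 9.11 and 9.24 in BMP24h, 9.03, 9.21 and 8.83 in BMP6h and 8.55, 8.77 and 8.97 in control cultures. All BMP24h arrays lay above the control arrays and the BMP6h arrays lay across both ranges. BMP24h was 1.43-fold above control (9.28 ± 0.19 against 8.76 ± 0.21, SD, n = 3 each, log2 fold change 0.52, 95% interval 0.11 to 0.92, limma, unadjusted p = 0.0184, adjusted p = 0.972), and BMP6h (9.02 ± 0.19) differed from control by 0.26 (interval -0.14 to 0.66).

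The difference in Atp2c1 was uneven between the batches. It was 0.94 between the 2 arrays of batch 1 and 0.31 over batch 2 (limma, unadjusted p = 0.215), and it was 0.36 without control replicate 1 or without BMP24h replicate 1, where it did not pass. Atp2c1 had 1 probe set.

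Atp2b1 codes for the most widespread calcium pump of the plasma membrane. It gave 7.57, 7.48 and 7.77 in BMP24h, 8.00, 7.82 and 7.80 in BMP6h and 7.93, 8.19 and 7.95 in control cultures. The BMP24h arrays were below all 6 others, by little in the case of replicate 3. BMP24h was 1.34-fold below control (7.61 ± 0.15 against 8.02 ± 0.14, SD, n = 3 each, log2 fold change -0.42, 95% interval -0.74 to -0.09, limma, unadjusted p = 0.018, adjusted p = 0.972), and the difference from BMP6h (7.87 ± 0.11) was -0.27 (unadjusted p = 0.0933).

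The other 2 probe sets of Atp2b1 did not share this difference. They had log2 fold changes at 24 hr of 0.14 and -0.01, and on both the BMP24h and control arrays overlapped. With the mean over the 3 probe sets the value was -0.10 (limma, unadjusted p = 0.539). At the brightest, Atp2b1 was -0.45 in batch 2 alone, and it did not pass without control replicate 2, BMP24h replicate 1 or BMP24h replicate 2, where it was between -0.39 and -0.33.

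Of the other 6 calcium ATPases, Atp2a1 had the lowest log2 fold change of all 63 genes at both times. This pump is best known from fast skeletal muscle. Atp2a1 gave 5.38, 5.10 and 4.68 in BMP24h, 5.11, 5.12 and 4.71 in BMP6h and 5.26, 5.29 and 6.59 in control cultures. Control replicate 3 alone was high, and the values of -0.65 at 24 hr and -0.73 at 6 hr were -0.18 and -0.25 without it. Atp2a2, the pump of the neuronal endoplasmic reticulum, was between 9.86 and 10.07 on all arrays with a log2 fold change of 0.00 at 24 hr (interval -0.26 to 0.26), and is named after its values were seen. Atp2b3, a calcium pump of neurons, did not pass at its brightest probe set, with -0.20 at 6 hr. A second probe set gave 5.84, 5.40 and 5.86 in BMP6h and 6.03, 5.96 and 6.51 in control cultures, a log2 fold change of -0.47 that passed the thresholds of the Methods (limma, unadjusted p = 0.0438). On that probe set BMP6h replicate 2 was again the lowest array and control replicate 3 the highest.

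**Figure D4:**
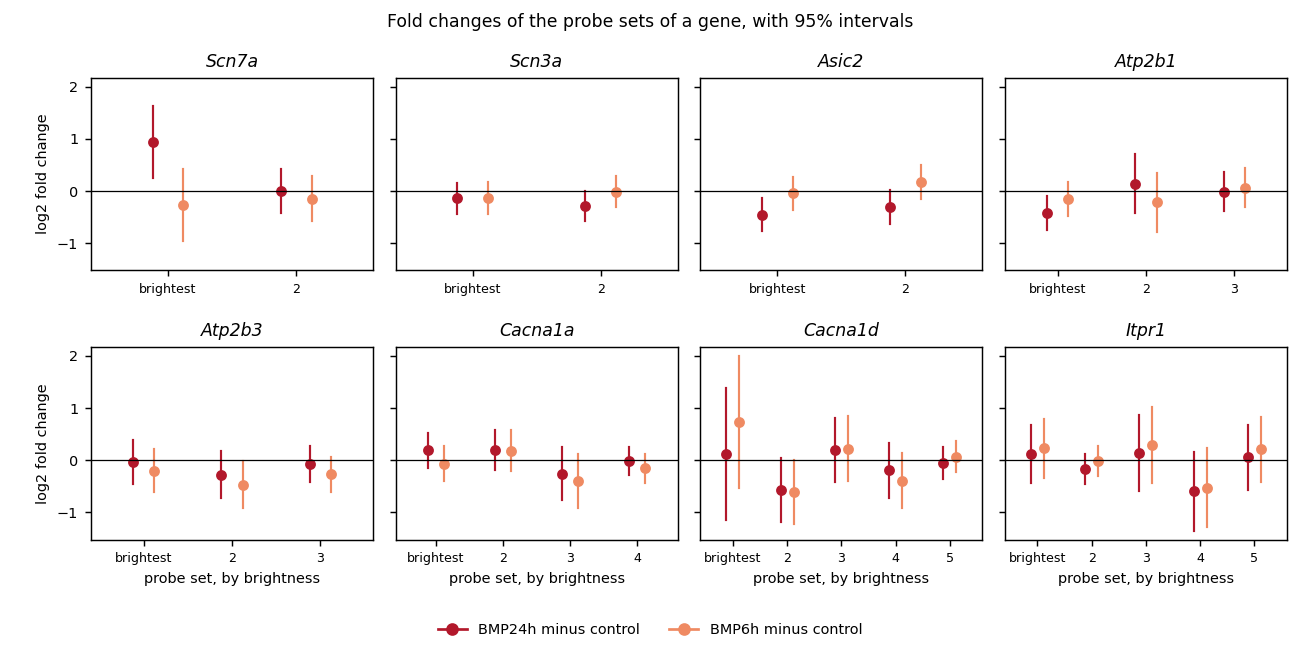
Log2 fold change with its 95% interval (y axis) at each probe set of 8 genes, from the brightest on the left to the dimmest on the right (x axis), BMP24h minus control and BMP6h minus control. The probe sets of Asic2 lie on the same side of 0 at 24 hr, while the dimmer ones of Scn7a and Atp2b1 lie near 0.

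The sodium pump was represented by 3 beta subunits, which bring the catalytic subunit to the surface, and by the catalytic subunit of sperm, Atp1a4, with no gene past the thresholds. Atp1b1 was between 12.93 and 13.16 on all arrays with a log2 fold change of -0.01 at 24 hr (interval -0.29 to 0.27), and is named after its values were seen. Atp1b2 gave 7.63, 7.53 and 7.77 in BMP24h, 7.73, 7.27 and 7.84 in BMP6h and 7.74, 7.81 and 7.99 in control cultures, with the conditions overlapping. Atp1b3 gave 9.68, 9.48 and 9.89 in BMP24h, 9.61, 9.34 and 9.63 in BMP6h and 9.45, 9.54 and 9.59 in control cultures. The conditions overlapped here too, and the log2 fold change at 24 hr was -0.21 for Atp1b2 and 0.15 for Atp1b3. Atp1a4 was between 4.18 and 4.67 on all arrays.

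The V-ATPase is the proton pump that acidifies lysosomes and loads synaptic vesicles. It had no gene past the thresholds in the unweighted fit of condition and batch to all 9 arrays. Its 9 genes had log2 fold changes between -0.13 and 0.16 at 24 hr and between -0.16 and 0.13 at 6 hr, and the 95% intervals of all 9 lay within a 2-fold change in every comparison. Atp6v1a, the catalytic subunit, gave 9.88, 9.65 and 9.98 in BMP24h, 9.83, 9.60 and 9.99 in BMP6h and 9.89, 9.97 and 10.03 in control cultures. Replicate 2 was the low array in both BMP-7 conditions, and the conditions overlapped. Atp6v1d was between 9.14 and 9.70 and Atp6v0a1 between 9.65 and 10.08 on all 9 arrays.

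Chloride channels and exchangers held 1 gene past the thresholds, in the comparison of the times. Clcn3 codes for a chloride and proton exchanger of endosomes and synaptic vesicles. It gave 8.91, 8.82 and 8.95 in BMP24h, 9.07, 9.18 and 9.22 in BMP6h and 9.20, 9.05 and 9.14 in control cultures. The BMP24h arrays lay below all 6 others and the BMP6h and control arrays overlapped. BMP24h was below BMP6h (8.89 ± 0.07 against 9.16 ± 0.08, SD, n = 3 each, log2 fold change -0.26, limma, unadjusted p = 0.0479, adjusted p = 0.939), at the edge of both thresholds, and the difference from control (9.13 ± 0.07) was -0.24 (interval -0.50 to 0.02, unadjusted p = 0.0697). It no longer passed between the times when any 1 of the 9 arrays was left out, with log2 fold changes between -0.33 and -0.22.

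Clcn7, the exchanger of lysosomes, gave 6.20, 6.07 and 6.47 in BMP24h, 6.28, 5.48 and 6.33 in BMP6h and 6.27, 6.31 and 6.84 in control cultures. Once more BMP6h replicate 2 was the lowest array and control replicate 3 the highest, and the log2 fold change at 6 hr was -0.44 (interval -1.07 to 0.19), which passed with the replicate block (limma, unadjusted p = 0.0412). Clcn1, the chloride channel of skeletal muscle, was between 6.26 and 6.48 on 8 arrays and at 6.82 on control replicate 3.

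Counted without a test, the 3 arrays of BMP24h did not overlap those of control for 7 of the 63 genes, a share of 11.1%, where 13.6% of all genes had such a gap. Scn7a and Atp2c1 were higher (5.95% of all genes) and Asic2, Atp2b1, Cacna1b, Clcn3 and Scn3a lower (7.69%). BMP6h did not overlap control for 3 genes, 4.76% against 10.5% of all genes, with Asic1 and Atp2b2, a calcium pump of neurons and hair cells named after its values were seen, higher (3.12% of all genes) and Atp2a1 lower (7.37%). At the other 3 probe sets of Atp2b2 the BMP6h and control arrays overlapped, with log2 fold changes between -0.03 and 0.03. BMP24h did not overlap BMP6h for 6 genes, 9.52% against 10.4%, with Scn7a higher (6.12% of all genes) and Asic2, Atp2b1, Cacna1b, Cacnb4 and Clcn3 lower (4.27%). The 3 shares over both directions were near or below those of all genes.

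Genes that work with these channels and pumps without sharing their symbols (transporters, scaffolds, kinases and regulators) were read from a list of 59, of which 39 were measured. At 24 hr 1 passed the thresholds of the Methods higher and 3 lower, where 1.77% and 2.05% of all genes did. At 6 hr 0 passed (1.79% of all genes). Between the times 1 was higher and 3 lower (1.58% and 1.63% of all genes). In each comparison 0 passed the adjusted test in limma. Slc12a7, a potassium and chloride cotransporter, averaged 8.19 in BMP24h, 7.82 in BMP6h and 7.61 in control cultures, with a log2 fold change of 0.58 at 24 hr. Slc24a2, which exchanges sodium for calcium and potassium, averaged 6.25 in BMP24h, 6.69 in BMP6h and 6.91 in control cultures, lower by a log2 fold change of -0.67 at 24 hr. Of the subunits of the calcium-dependent kinase CaMKII, Camk2g (7.76 in BMP24h, 8.20 in BMP6h and 8.50 in control cultures) and Camk2d (8.97 in BMP24h, 9.34 in BMP6h and 9.33 in control cultures) were lower at 24 hr, while Camk2a and Camk2b did not pass. The same 4 genes passed between 24 hr and 6 hr, in the same directions. The median over the 39 was 0.05 at 24 hr, 0.01 at 6 hr and -0.09 between the times.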

How the data were processed

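RNA of 9 samples, 3 for each of BMP24h, BMP6h and control, was hybridized to Affymetrix Rat Genome U34A arrays. The deposited table holds log2 values. The authors had run RMA on the scans in Partek Genomics Suite and then its batch removal function, after which the means of the 2 batches were within 6.7e-05 of each other for every probe set. Removing the batch difference before a fit with a batch term leaves the fold changes as they are. Of 8799 probe sets, 59 controls were left out, and of the 8740 tested 7006 name 1 gene, 308 several and 1426 none in the platform annotation. All 63 symbols matched the RefSeq table by Entrez ID, and no genome build is given in the sources used here.

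A model with condition and batch was fitted to all 9 arrays (5 residual degrees of freedom) with limma 3.58.1 under R 4.3.3, and p-values received Benjamini-Hochberg adjustment over the 8740 probe sets. Adjusted p-values under 0.05 were the adjusted test. The thresholds of the Methods (raw p under 0.05, change of 1.2-fold or more) were read from that model too. The fit was tested on simulated data. Genes were named if they passed either threshold, were among the 3 highest or 3 lowest log2 fold changes of a comparison, or were among up to 3 of a family with the lowest p of the F-test across conditions. The members and lists were chosen with earlier results of these data known, and Scn7a, Atp2c1, Atp2b1, Scn3a and Clcn3 are in the tables of the paper, which come from the same arrays, so their differences are not independent evidence. Marker lists covered neurons, satellite glia and Schwann cells, fibroblasts and matrix, endothelial and mural cells, and macrophages and blood cells. P-values measure the spread between these pooled samples.

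Alternatives dropped the batch term, used replicate number as the block, kept only batch 2, removed the dimmest 25% of probe sets, ran quantile normalization again, centred arrays on their medians, fitted just the groups compared, allowed an intensity trend, ran the analysis of variance of the Methods, weighted the arrays, averaged a gene's probe sets, raised the minimum change to 1.5-fold, and left out each array. For the genes at the ends of the range that did not pass, and for Scn10a, Cacnb4 and Scn7a, the fits without BMP6h replicate 2 and without control replicate 3 were added after the values were seen.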

Additional observations from a re-analysis of the deposited data

How the results depend on the processing

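The 4 genes past the thresholds of the Methods at 24 hr (3.82% of all genes passed) became 1 at a fold change of at least 1.5 (1.69% of all genes). They became 0 in batch 2 alone (1.88%) and 2 when a gene's probe sets were averaged (3.8%). With array weights they became 5 (Atp6v1d added, 9.44%). When 1 array was left out they became 2 (without BMP24h replicate 1, 2.28%) to 4. At 6 hr the 0 genes became 1 with no batch term (Asic1), 1 with array weights (Atp2c1) and 0 to 8 when 1 array was left out, with 8 without BMP6h replicate 3 (6.95% of all genes), 1 without control replicate 1 (Atp2a1) and 0 without any other. Between the times the 3 genes became 1 at a fold change of at least 1.5, 1 in batch 2 alone, 5 with array weights and 1 (without BMP6h replicate 1) to 4 (without BMP6h replicate 3, with 1 gene shared). Past the adjusted test, array weights gave 3 genes at 24 hr (Asic2, Atp2c1 and Scn7a, where 3.63% of all genes passed) and 2 between the times (Asic2 and Scn7a, 2.39%), with weights from 0.093 for BMP6h replicate 2 to 5.764 for BMP24h replicate 1; the other settings run, in limma and in the analysis of variance, gave 0 in all 3 comparisons. The cause of these moves was not tested.

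Deviations from the condition means were correlated between same-numbered arrays. The correlation was -0.21, 0.06 and -0.04 for BMP24h and control. It was -0.74, -0.08 and 0.07 for BMP6h and control, and -0.50, 0.23 and 0.53 for BMP24h and BMP6h. Batch removal made the deviations of the arrays numbered 1 cancel over the conditions, and it bound those of the other arrays likewise. The correlations therefore could not show whether arrays of the same number come from the same dissection. With the replicate block in place of the batch, 4, 7 and 4 genes passed the thresholds of the Methods at 24 hr, at 6 hr (4.58% of all genes) and between the times, against 4, 0 and 3, and 0 passed the adjusted test.

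The log2 fold changes of the 7 passing values kept their sign in all 147 alternatives, and in 30 of the 140 that have a test the value no longer passed (the 7 in batch 1 alone have 1 array a condition and no test). Without control replicate 3, the 24 hr values turned to -0.081 for Scnn1b, -0.096 for Scn10a and -0.33 for Cacnb4. Without BMP6h replicate 2, Cacna1d turned to 0.12 between the times and Scn7a to 0.12 at 6 hr (-0.24 without control replicate 3). The signal over background is not in the values used, so whether dim probe sets measured their gene was not tested.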
